A study of Homo sapiens with 4 samples.

Results

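Tetraspanins are small membrane proteins that cross the lipid bilayer 4 times and gather other surface proteins, such as integrins, growth factor receptors and membrane proteases, into laterally organised microdomains. Several members also travel through endosomes and are used as markers of extracellular vesicles. CD82, also known as KAI1, is a tetraspanin known for restraining metastasis. The values below describe 10 tetraspanin genes, namely CD82, CD9, CD63, CD81, CD151, TSPAN3, TSPAN4, TSPAN14, TSPAN15 and TSPAN31, taken by symbol from tables of 15357 genes. All 10 were listed, and all 10 passed the filter on low counts that left 11955 genes for testing.

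RNA-seq was performed in RKO, a human colorectal cancer cell line, after stable lentiviral expression of a control shRNA (vector, 2 samples) or of a short hairpin RNA against CHD7 (shCHD7_2, 2 samples). CHD7 is an ATP-dependent chromatin remodeller, and the comparison asked how its depletion changed transcript levels. Only 1 hairpin was sequenced, so effects of CHD7 loss and of the hairpin itself cannot be told apart. No source used here says whether the 2 samples of a group came from separate cultures, so p-values measure only the spread between these samples.

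The estimated read counts summed to between 15734679 and 16068650 per sample. CHD7 itself had 1326 and 1436 counts in the vector samples and 890 and 800 in the shCHD7_2 samples, a log2 fold change of -0.74 (SE 0.09, adjusted p = 4.15e-06, edgeR quasi-likelihood test). Of 9 colon epithelial markers 7 were listed, among them KRT8, KRT18, EPCAM and CDX2, whereas KRT20, CDH1 and LGALS4 had 0 or 1 count in every sample. Their summed FPKM (fragments scaled to transcript length and sequencing depth) was 75.3 to 81.2 in vector and 81.6 to 90.3 in shCHD7_2 samples. Of 9 fibroblast markers 3 were listed, with a summed FPKM of 1.32 to 1.53 in vector and 2.28 to 2.74 in shCHD7_2 samples. The smooth muscle actin gene ACTA2 was the only fibroblast marker tested and rose (34 and 33 counts against 55 and 66, log2 fold change 0.82, adjusted p = 0.0258 by edgeR and 0.250 by DESeq2), while COL1A1 had 1 to 7 counts and LUM 0 to 2. Of 9 leukocyte markers 6 were listed. CD68, a lysosomal membrane protein gene, made up nearly all of their summed FPKM (495 to 530 in vector, 603 to 612 in shCHD7_2), and without it the sum was 0.46 in both vector samples and 0.65 and 0.63 in the shCHD7_2 samples. The part of these marker values in the results below was not tested.

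Promoter window sequences of CD82 and TSPAN15 are shown because these were the 2 genes of the 10 that passed the adjusted threshold. They were read from the RefSeq promoter windows of GRCh38.p14, which matched 7 of the 10 genes (CD81, CD151 and TSPAN3 were not matched), and were restricted to bases before the RefSeq start that lie in no GENCODE 29 exon of the gene. Both genes are on the plus strand, and capitals mark the GC box GGGCGG or its reverse complement CCGCCC. The CD82 stretch is chr11:44565413-44565590 and the TSPAN15 stretch is chr10:69451215-69451464. GENCODE places the start of CD82 further upstream, at 44564427, so the CD82 stretch lies inside the gene span of that annotation, between exons, whereas the TSPAN15 stretch precedes its gene in both annotations.
CD82 window: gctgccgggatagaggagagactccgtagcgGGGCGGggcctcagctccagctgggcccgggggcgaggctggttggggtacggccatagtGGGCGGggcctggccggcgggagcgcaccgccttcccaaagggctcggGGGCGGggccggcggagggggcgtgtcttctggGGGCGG
TSPAN15 window: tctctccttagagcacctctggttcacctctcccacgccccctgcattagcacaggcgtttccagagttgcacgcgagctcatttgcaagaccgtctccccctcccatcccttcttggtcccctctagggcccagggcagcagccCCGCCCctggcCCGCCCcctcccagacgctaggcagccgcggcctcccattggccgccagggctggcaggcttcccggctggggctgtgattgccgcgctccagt
The CD82 stretch held 4 GC boxes, all on the plus strand, and the TSPAN15 stretch held 2, both on the minus strand. At least 1 GC box was present in 42.6% of 35116 RefSeq windows of 250 bases. The search also covered AP-1, E-box, CRE core, CCAAT box, TATA box and p53 half-site motifs. Of these, the full 250-base window of CD82 held 0. That of TSPAN15 held 1 CCAAT box, a motif present in 32.0% of all windows. A role of any of these motifs was not tested. The full 250-base window of CD82 was 77.2% G and C, above 93.8% of all windows, and that of TSPAN15 was 67.6%. The 21 windows of the 5 other matched genes, none of which passed, held 0 to 6 GC boxes and were 44.8% to 88.0% G and C, a range that takes in both genes.

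The 10 tetraspanins spanned more than 2 orders of magnitude in expression. Levels between genes are compared in FPKM, which corrects for gene length. CD63, a tetraspanin of late endosomes and exosomes, was highest, with 630 and 681 FPKM in vector and 629 and 661 in shCHD7_2 samples. CD9, a widely expressed surface tetraspanin, followed with a mean over the 4 samples of 190 FPKM, then the laminin-binding integrin partner CD151 (179), TSPAN3 (158) and CD81, a broadly expressed surface tetraspanin (151). These 5 genes ranked above 96.9% of all listed genes. CD9 and CD151 overlapped within the vector samples, and TSPAN3 and CD81 overlapped within the shCHD7_2 samples, so the order of these neighbours was not separated by the spread between samples. TSPAN4, a tetraspanin of migrasomes, stood at 25.5 FPKM, TSPAN31 at 12.4 and TSPAN14 at 7.75. CD82 (5.91) and TSPAN15 (5.28) were the lowest.

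**Figure D1:**
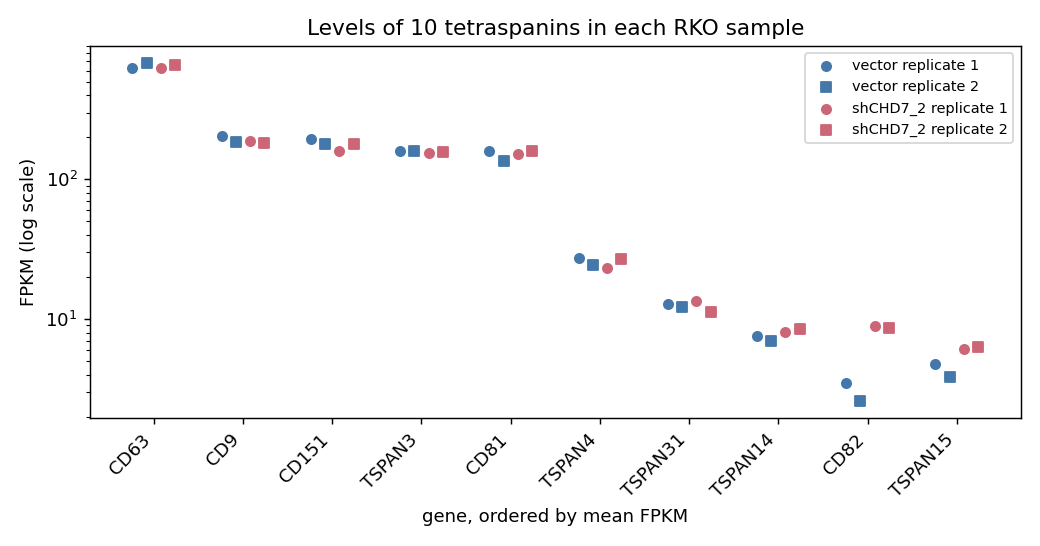
FPKM (log axis) of the 10 tetraspanins in each of the 2 vector samples (blue) and 2 shCHD7_2 samples (red), ordered by mean FPKM, with circles for replicate 1 and squares for replicate 2. The CD82 points lie at 2.59 and 3.50 in vector and at 8.63 and 8.91 in shCHD7_2 samples, whereas the points of CD63 lie between 629 and 681 in all 4.

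CD82 was the gene with the largest difference among the 10. It had 87 and 65 counts in the vector samples and 222 and 215 in the shCHD7_2 samples, corresponding to 3.50 and 2.59 FPKM against 8.91 and 8.63. Both shCHD7_2 samples were above both vector samples, and the 2 shCHD7_2 samples lay closer together than the 2 vector samples. Scaled by TMM, CD82 rose from 4.86 ± 1.05 CPM (SD, n = 2) to 13.7 ± 0.262 CPM (SD, n = 2), which was 2.81-fold (95% interval 2.21 to 3.56). The log2 fold change was 1.49 (SE 0.17, adjusted p = 1.39e-06, edgeR quasi-likelihood test). The smallest two-sided p that an exact permutation test of 2 samples against 2 allows is 0.333, hence the use of edgeR's fit over the whole table. CD82 was among the genes that the study had followed up, so its direction here is not independent evidence. By real-time RT-PCR in RKO cells, the paper reports higher CD82 mRNA after CHD7 knockdown. The gene spans chr11:44564427-44620363 on the plus strand (GRCh38, GENCODE 29), where 125 of its exonic bases are shared with the antisense gene AC010768.1. The strand setting of the counting was not stated, so it is uncertain whether reads of the 2 were separated at those bases.

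CD82 changed place in the order of levels. It was the lowest of the 10 in the vector samples and ranked 8 of 10 by mean in the shCHD7_2 samples, above TSPAN15 (6.10 and 6.36 FPKM) and TSPAN14 (8.06 and 8.46 FPKM). It accounted for 0.249% and 0.186% of the summed FPKM of the 10 genes in vector and for 0.664% and 0.616% in shCHD7_2 samples. The sum itself was 1397 ± 7.99 FPKM (SD, n = 2) in vector and 1371 ± 41.4 FPKM (SD, n = 2) in shCHD7_2, a difference within the spread of the shCHD7_2 samples. CD63 contributed between 44.9% and 48.9% of it in every sample.

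TSPAN15, a partner of the membrane protease ADAM10 that acts on the choice of its substrates, was the other gene past the adjusted threshold. It had 114 and 98 counts in vector and 149 and 155 in shCHD7_2 samples, or 7.34 and 6.21 CPM against 9.29 and 9.71. The groups did not overlap, and the size was smaller than for CD82, at 1.40-fold (95% interval 1.12 to 1.76). The log2 fold change was 0.49 (SE 0.16, adjusted p = 0.0498, edgeR), which is just under the threshold of 0.05 and below the fold of 1.5 used for a call. Over 14 alternative settings (glmTreat, which tests against a fold of 1.5, set aside) its adjusted p stayed under 0.05 in 6. The lowest of these, 0.00555 by edgeR, came from a crossed pairing of samples chosen after seeing the data. The next lowest was 0.0230, by limma on log2(FPKM + 1) with a minimum FPKM. With samples blocked by replicate number the adjusted p was 0.0951 by edgeR. Leaving out any of the 4 samples took TSPAN15 above the threshold, and without the vector sample of replicate 2 its log2 fold change was 0.37. DESeq2 gave an adjusted p of 0.274.

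Calls required a fold of at least 1.5 together with an adjusted p under 0.05. By this rule 1 of the 10 tetraspanins was called, CD82, where 2.88% of all 11955 tested genes were called in either direction and 1.51% were called higher. With the fold requirement dropped, CD82 and TSPAN15 passed, 2 of 10, against 11.5% of all tested genes. In CPM, the vector and shCHD7_2 samples did not overlap for 6 of the 10 (3 higher and 3 lower), a share near the 53.7% of all tested genes. The median log2 fold change of the 10 was -0.03, beside 0.00056 over all tested genes. With library totals in place of TMM both were above 0, at 0.017 and 0.045, and without replicate 1 of shCHD7_2 the median of the 10 was 0.012.

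**Figure D2:**
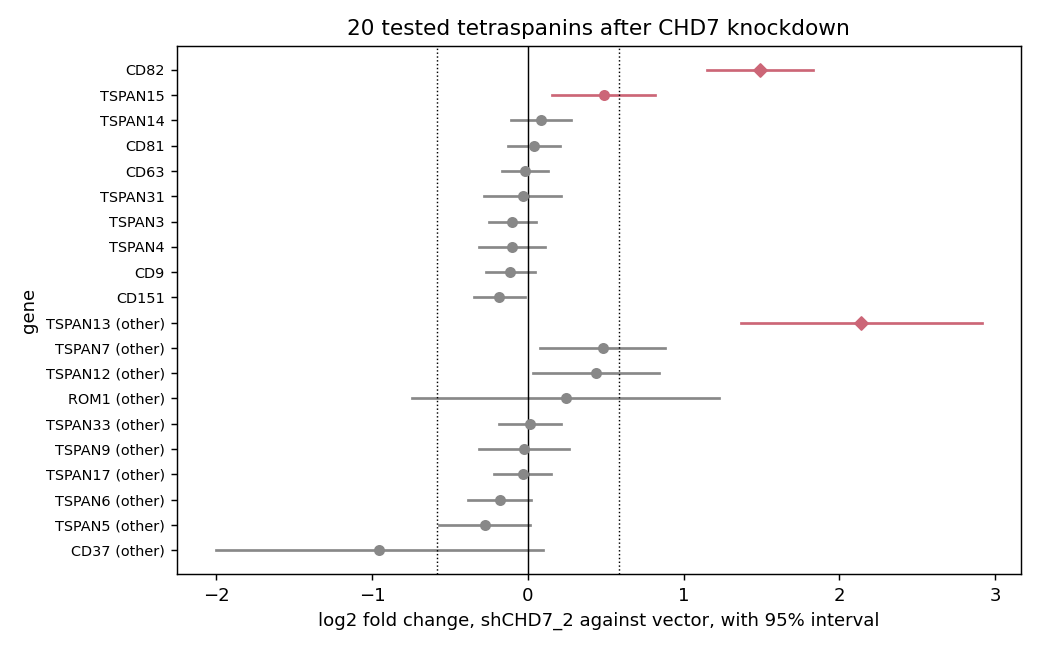
Log2 fold change of shCHD7_2 against vector with its 95% interval for the 10 tetraspanins (upper rows) and 10 other tested tetraspanins (marked other), with red for genes past the adjusted threshold, diamonds for called genes and dotted lines at a fold of 1.5 either way. CD82 at 1.49 and TSPAN13 at 2.14 lie right of the dotted line with their whole intervals, TSPAN15 at 0.49 crosses it, and the other 8 of the 10 lie between the lines.

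None of the other 8 tetraspanins passed, and for each the 95% interval of the difference lay within a fold of 1.5 either way. CD151 alone among them had an unadjusted p under 0.05 in edgeR, which 25.4% of all tested genes had, and DESeq2 passed none of them. Among the vesicle-associated members, CD63 had 544 and 565 CPM in vector and 528 and 566 in shCHD7_2 samples, and the groups overlapped. Its log2 fold change was -0.02 (95% interval -0.17 to 0.13). CD81 had 208 and 180 CPM in vector and 193 and 206 in shCHD7_2 samples (log2 fold change 0.04, interval -0.13 to 0.21). The groups of CD81 also overlapped. CD9 had 238 and 217 CPM in vector and 212 and 209 in shCHD7_2 samples, which did not overlap (log2 fold change -0.11, interval -0.27 to 0.04, adjusted p = 0.376 by edgeR). In FPKM the groups of CD9 overlapped.

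CD151 came closest to the threshold among these 8. It had 273 and 250 CPM in vector and 216 and 245 in shCHD7_2 samples. All shCHD7_2 values were below the vector values, with replicate 2 of shCHD7_2 near the lower vector sample. The log2 fold change was -0.18 (SE 0.08, interval -0.35 to -0.02) with an adjusted p of 0.150 by edgeR. Without replicate 2 of shCHD7_2 it was -0.28, with an adjusted p of 0.0199 by edgeR. In FPKM the groups overlapped, at 195 and 179 against 160 and 179. The span of CD151 overlaps that of POLR2L on the opposite strand, with 0 shared exonic bases. CD151 also shares 41 exonic bases with the antisense gene AP006621.1. Opposite-strand genes share exonic bases with CD63 (237), TSPAN3 (264), TSPAN14 (235) and CD81 (30) as well.

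TSPAN3 had 267 and 261 CPM in vector and 241 and 251 in shCHD7_2 samples, with a log2 fold change of -0.10 (interval -0.25 to 0.05). TSPAN4 had 34.7 and 31.0 CPM in vector and 28.3 and 32.9 in shCHD7_2 samples, with overlapping groups and a log2 fold change of -0.10 (interval -0.32 to 0.11). TSPAN14, like TSPAN15 a member of the ADAM10-binding subgroup of tetraspanins, had 37.2 and 36.6 CPM in vector and 37.7 and 40.4 in shCHD7_2 samples. Its groups did not overlap, and its log2 fold change was 0.08 (interval -0.11 to 0.27).

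TSPAN31 lies tail to tail with CDK4, the cyclin-dependent kinase of G1 phase, on the opposite strand of chromosome 12. The 2 genes share 1078 exonic bases, 28.2% of those of TSPAN31 and 51.9% of those of CDK4. TSPAN31 had estimated counts of 309.06 and 296.68 in vector and 328.35 and 276.61 in shCHD7_2 samples, and those of CDK4 were also not whole (4483.94 and 4238.32 against 4154.65 and 4404.39). Counts that were not whole were not particular to this pair. Between 13.65% and 14.7% of all listed genes had them in each sample, and CD82 had 222.01 and 214.95 in the shCHD7_2 samples. Neither TSPAN31 nor CDK4 passed, with log2 fold changes of -0.03 (interval -0.28 to 0.21) and -0.06 (interval -0.21 to 0.10). The separation of TSPAN31 and CDK4 is uncertain because the strand setting was not stated.

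**Figure D3:**
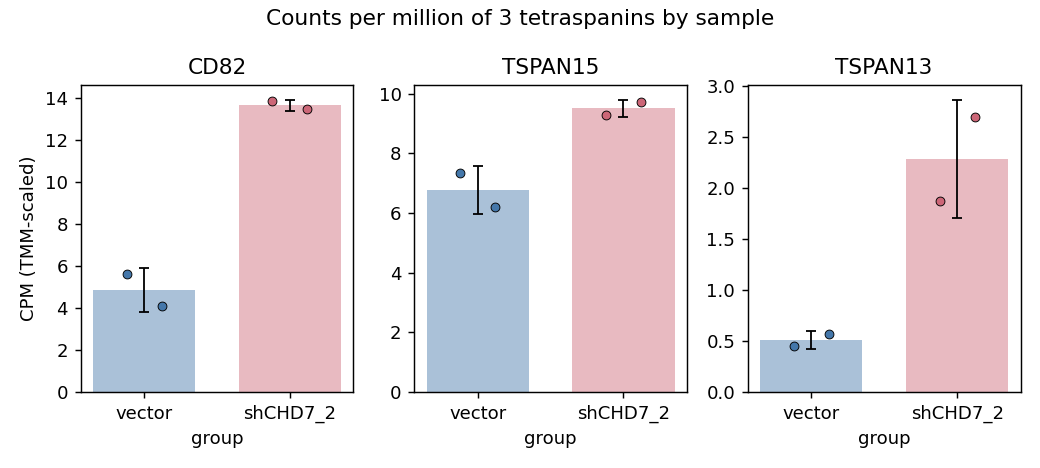
TMM-scaled CPM of CD82, TSPAN15 and TSPAN13, each on its own axis from 0, with a point for each of the 2 samples per group, bars for group means and error bars for the SD (n = 2). In all 3 genes both shCHD7_2 samples lie above both vector samples, with CD82 at 13.8 and 13.5 against 5.60 and 4.12.

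Of 23 further tetraspanin genes, 16 were listed and 10 passed the filter on low counts. Only TSPAN13 was called, 1 of 10, beside 2.88% of all tested genes. It had 7 and 9 counts in vector and 30 and 43 in shCHD7_2 samples, a low expressed gene with a mean of 0.810 FPKM. The groups did not overlap, and the log2 fold change was 2.14 (SE 0.37, 95% interval 1.37 to 2.92, adjusted p = 0.000469, edgeR). The fold of 4.41 thus rests on 7 and 9 reads in the vector group. TSPAN33 (26.8 FPKM), TSPAN17 (20.7 FPKM) and TSPAN6 (14.0 FPKM) were the most expressed of these genes, with log2 fold changes of 0.01, -0.03 and -0.18 that did not pass. The median over the 10 was -0.0053. The 6 listed but untested genes were TSPAN1, TSPAN10, TSPAN11, TSPAN18, UPK1B and PRPH2, with at most 10 counts in any sample.

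Integrins bind tetraspanins directly or through shared microdomains, and CD151 in particular associates with the laminin receptors that contain ITGA3 or ITGA6. Of 8 integrin genes 7 were listed and 6 tested, and 1 was called, ITGA6, beside 2.88% of all tested genes. It rose from 669 and 723 to 1172 and 1033 counts (log2 fold change 0.63, SE 0.09, 1.55-fold, adjusted p = 5.2e-05, edgeR). Without replicate 1 of shCHD7_2 its fold fell below 1.5, at a log2 fold change of 0.54. At any fold 4 of the 6 passed, 2 higher and 2 lower, against 11.5% of all tested genes. ITGA5, the fibronectin receptor subunit, rose from 3628 and 3750 to 4822 and 5094 counts (log2 fold change 0.40). ITGA3 fell from 1672 and 1704 to 1191 and 1278 counts (log2 fold change -0.48). ITGB1, the shared beta subunit and the most expressed of the group at 1098 FPKM, fell from 65520 and 72074 to 62111 and 57549 counts (log2 fold change -0.23). The ITGA6 and ITGA3 transcripts, both of laminin-binding alpha subunits, thus moved in opposite directions. Only ITGA6 was called, and CD151 did not pass.

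Of 16 other membrane partners, 15 were tested and 0 were called by edgeR or by DESeq2, where edgeR called 2.88% of all tested genes. At an unadjusted p under 0.05 edgeR gave 7, beside 25.4% of all tested genes. The adjusted threshold at any fold was passed by 2 of the 15, both lower, against 11.5% of all tested genes. The hyaluronan receptor CD44 fell from 4799 and 4832 to 3806 and 3540 counts (log2 fold change -0.42, adjusted p = 0.000468, edgeR), and the membrane metalloprotease MMP14 fell from 914 and 949 to 737 and 785 counts (log2 fold change -0.32, adjusted p = 0.0173, edgeR). With DESeq2 CD44 passed and MMP14 did not (adjusted p = 0.0634). ADAM10, the protease that TSPAN14 and TSPAN15 bind, had 2269 and 2494 counts in vector and 2402 and 2170 in shCHD7_2 samples, with overlapping groups and a log2 fold change of -0.09 (interval -0.26 to 0.08). The most expressed partners were BSG (316 FPKM), SLC3A2 (137 FPKM) and CD44 (62.8 FPKM). BSG and SLC3A2 did not pass, at log2 fold changes of 0.13 and -0.20. The median over the 15 was -0.09.

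Of 20 genes of endosomal sorting and vesicle release, 18 were tested and 0 were called by edgeR or by DESeq2. By edgeR 2.88% of all tested genes were called. At an unadjusted p under 0.05 edgeR gave 5, a share near the 25.4% of all tested genes. The adjusted threshold at any fold was passed by 4 of the 18, against 11.5% of all tested genes. LAMP1, a lysosomal membrane glycoprotein (log2 fold change 0.27), and the syndecan SDC4 (0.33) rose, while PDCD6IP, which encodes the ESCRT adaptor ALIX (-0.26), and the flotillin FLOT1 (-0.25) fell. The most expressed were RAB7A (189 FPKM), FLOT1 (124 FPKM) and SDCBP, the syntenin gene (122 FPKM). RAB7A and SDCBP did not pass, at -0.09 and -0.06 on the log2 scale. The median over the 18 was -0.04.

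**Figure D4:**
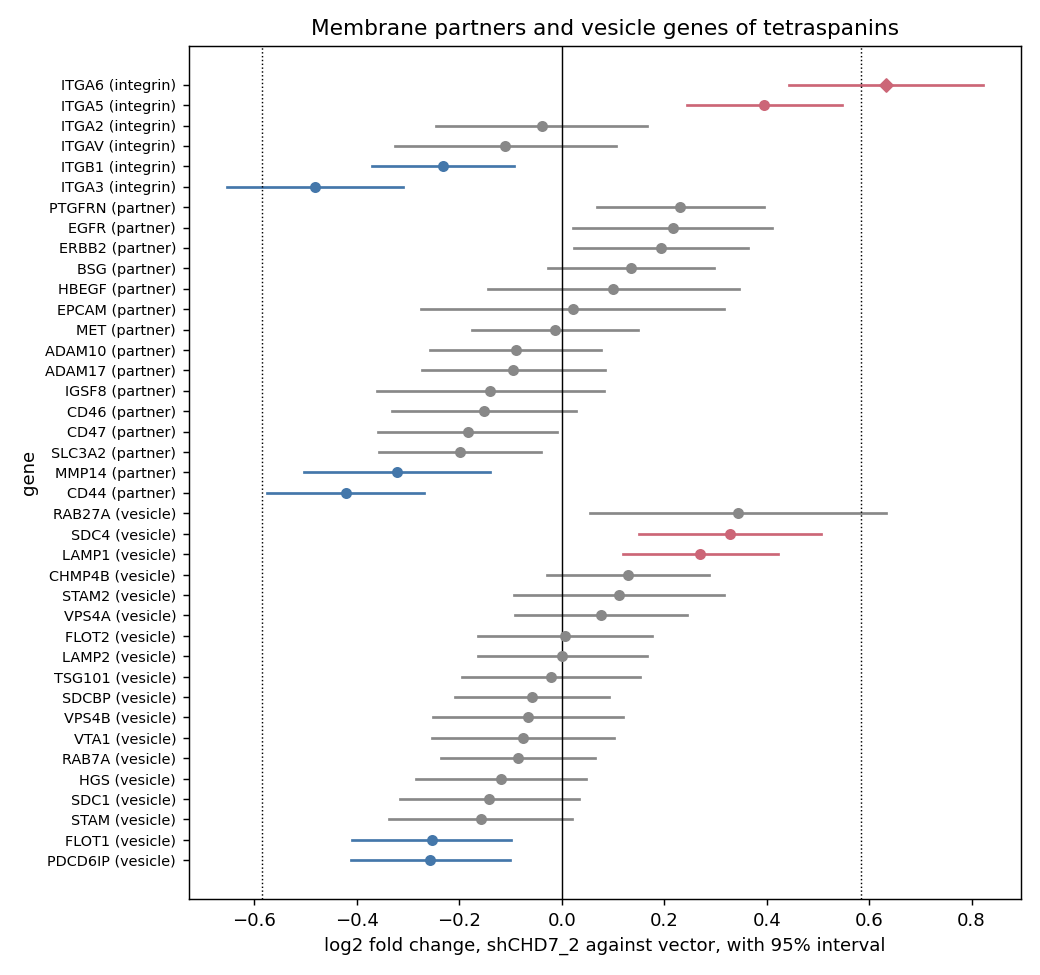
Log2 fold change of shCHD7_2 against vector with its 95% interval for 6 integrins, 15 other membrane partners and 18 vesicle genes, with red for genes that rose and blue for genes that fell past the adjusted threshold, grey for the rest and dotted lines at a fold of 1.5. ITGA6 at 0.63 is the only point beyond a dotted line and the only called gene.

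Genes reported to act on CD82 transcription were measured as transcripts only. All 8 were tested and 0 were called or passed at any fold by edgeR or DESeq2. Over all tested genes edgeR called 2.88% and passed 11.5% at any fold. At an unadjusted p under 0.05 edgeR gave 2 of the 8, a share near the 25.4% of all tested genes. The most expressed were CTNNB1 (142 FPKM), RUVBL2 (83.0 FPKM) and RUVBL1 (60.1 FPKM), with log2 fold changes of -0.07, 0.05 and 0.05. RUVBL1 and RUVBL2 encode a pair of related ATPases found in chromatin complexes.

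The genes whose profile was nearest to CD82 over the 4 samples were TMEM110-MUSTN1, GDF15, USP2, CCDC170 and COL11A2. Likeness was measured as the Euclidean distance between log2 CPM values centred on each gene's mean, with 4 samples in 2 conditions, and lay between 0.16 and 0.23. GDF15, a secreted stress-response factor, had 42.6 and 33.9 CPM in vector and 105 and 117 in shCHD7_2 samples. It was the only gene of the 5 with over 5 CPM in every sample. TMEM110-MUSTN1, CCDC170 and COL11A2 had at most 2.07 CPM in any sample and USP2 had 1.27 to 3.95, so these profiles rest on few reads. CCDC170 did not pass the adjusted threshold (adjusted p = 0.0528, edgeR). The CD82 profile was in effect a difference between the groups, with the vector sample of replicate 2 lowest.

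**Figure D5:**
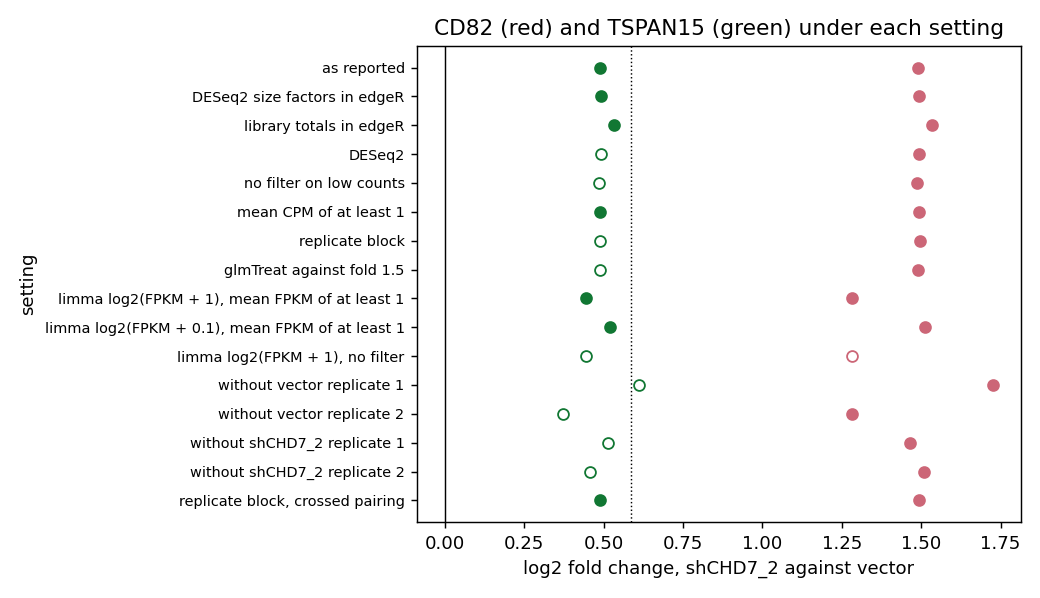
Log2 fold change of CD82 (red) and TSPAN15 (green) as reported and under 15 alternative settings, with filled points for an adjusted p under 0.05, open points for a higher one and the dotted line at a fold of 1.5. CD82 stays between 1.28 and 1.73 and is open only for limma on log2(FPKM + 1) without a filter. TSPAN15 stays between 0.37 and 0.61 and is open in 9 settings. The crossed pairing, filled for both genes, was chosen after seeing the data.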

How the data were processed

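RNA from RKO cells (2 vector and 2 shCHD7_2 samples, grouped by their labels) was captured with oligo-dT beads. The authors deposited expected counts (estimated counts, not normalized) and FPKM values, normalized for length and depth, for 15357 genes. Their processing notes name Bowtie2, RSEM, DESeq2 and the build hg38, with no versions. Strand setting and annotation are not given in the sources used here. RSEM divides reads between similar genes, which can move counts between them.

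Expected counts were rounded, filtered with filterByExpr and scaled by TMM in edgeR 4.0.16 (R 4.3.3). The quasi-likelihood test compared 2 samples with 2, with Benjamini-Hochberg adjustment over 11955 genes, and a biological coefficient of variation of 0.0579. SEs and 95% intervals came from its F statistic. A call needed an adjusted p under 0.05 and a fold of at least 1.5, the thresholds in the study's legends. The script was tested on simulated data. Alternatives were other scalings, DESeq2 1.42.0, other filters, a replicate block, glmTreat, limma 3.58.1 on log2 FPKM (pseudocounts 1 and 0.1) and leaving out each sample. Replicates of a group differed beyond sampling noise (chi-square per gene 3.86 and 5.87).

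The members and lists were chosen with earlier results of these data known. Genes named were the 10 tetraspanins, CHD7 and CDK4, called genes of each list (at most 5, by p) with its 3 of highest FPKM, and the 5 nearest to CD82. The value of 1 gene that this rule covers is not reported here. TSPAN14's partner ADAM10, genes past the adjusted p at any fold, marker genes and untested tetraspanins were named outside that rule, after their values were seen. Locations are from GENCODE 29. Motifs were searched in Python 3.11.15.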

Additional observations from a re-analysis of the deposited data

How the results depend on the processing

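CD82 kept its direction in all 15 alternatives, at log2 fold changes of 1.28 to 1.73, and its call in 14. With limma on log2(FPKM + 1) without a filter it was 1.28 with an adjusted p of 0.0637, and the count of the 10 tetraspanins called was then 0. Of all tested genes, 344 were called, against 219 with DESeq2, 141 without a filter on counts, 68 with glmTreat, and 172 and 23 with limma on log2(FPKM + 1) with and without a filter. Leaving out each sample gave 308 to 380.

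The count past the adjusted threshold at any fold (2 of 10) was 1 with DESeq2, without a filter on counts and with the replicate block, 0 with unfiltered limma, and 1 to 2 on leaving out each sample. The call of TSPAN13 was lost (0 called) without a filter on counts (log2 fold change 2.14, adjusted p = 0.0611, edgeR) and in unfiltered limma (0.85), and with a minimum FPKM of 1 the gene was not tested. The call among integrins was lost (0) with glmTreat and unfiltered limma, and it was 0 to 1 on leaving out each sample. CHD7 stayed lower but fell short of a call at -0.74 with glmTreat, and at -0.51, -0.58 and -0.51 in the 3 limma fits, and it was -0.82 to -0.67 on leaving out each sample. Among the genes recomputed, those that changed sign had not passed. These were CD63 (0.0245 with library totals, -0.0698 to 0.0252 on leaving out each sample), CD81 (-0.0589 to 0.146 on leaving out each sample) and TSPAN31 (0.0104 with library totals, -0.162 to 0.0798 on leaving out each sample). The cause was not tested.

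Same-numbered samples deviated in opposite directions (correlation -0.198 over 11955 genes), so the numbers were not taken to pair them. With the replicate block 1 of the 10 was called. With a crossed pairing, chosen after seeing the data, 1 of the 10 was called, 3 passed at any fold, and 423 of all tested genes were called. The fits without a sample assume that the lone sample of a group varies like the others. With 65 to 222 counts per sample, depth limits CD82 and TSPAN15 more than the other 8.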
